A study of Homo sapiens with 16 samples.

Results

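DNA replication genes encode the proteins that choose replication origins, unwind DNA, copy it, supply its nucleotides and rebuild chromatin behind the fork. A list of 39 such genes was described here across tumours grown from BT474, an established human line of breast cancer in which the receptor gene ERBB2 (HER2) is amplified. All 39 were found among the 18377 genes that the array table names by exactly 1 symbol. They were chosen by name, with earlier results of these data known. Each was read from its transcript cluster (the probe set for 1 gene) with the highest mean signal. The cells carried a lentiviral vector, inducible with doxycycline, that expressed a control microRNA hairpin (CTRL miR) or either of 2 hairpins against SHP2, named SHP2 miR1 and SHP2 miR2 by the labels. PTPN11 encodes SHP2, a phosphatase that relays receptor tyrosine kinase signals to RAS and ERK. Tumours were grown in immunodeficient mice, in the mammary fat pad; the labels do not give the strain or age. All 3 groups received doxycycline at 2 g per L in drinking water for 30 days once tumours had formed. There were 6 tumours with CTRL miR, 7 with SHP2 miR1 and 3 with SHP2 miR2, and 1 array of 100 ng total RNA for each. No untreated tumour and no parental BT474 tumour was analysed here, and the labels do not say whether each vector line was a clone or a pool. They also do not say whether each tumour came from a separate mouse. The p-values therefore set differences of means against the spread between these tumours, taken as independent. If each hairpin was carried by 1 vector line, the hairpin and its line cannot be told apart.

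In a dividing cell, ORC marks origins, and CDC6 and CDT1 load the ring-shaped MCM helicase on them in G1. In S phase CDC45 and the GINS complex join MCM to form the active helicase, and PCNA, the sliding clamp, is placed on DNA by the RFC loader and tethers the polymerases. Many of these genes are transcribed at the passage from G1 to S under E2F factors, so in a tumour their RNA is commonly read with the share of cycling cells. In bulk tumours such as these, fewer cycling cells and less RNA per cell cannot be told apart.

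Values are log2 signals, and they ran from 1.54 to 13.63 over all arrays. The targeted gene checked the labels: PTPN11 lay between 8.23 and 8.61 in the controls, between 6.59 and 7.18 (median 6.97) in SHP2 miR1 tumours, and at 6.52, 6.53 and 6.34 in SHP2 miR2 tumours. The groups did not overlap, and the change was -1.47 (SE 0.0969) with miR1 and -1.94 (SE 0.123) with miR2, with exact two-sided permutation p of 0.000583 and 0.0119, the smallest that 1716 and 84 arrangements allow. Control tumours 1, 3, 4 and 6 stood apart from control tumours 2 and 5, for example with IRS4 at 7.14 to 8.29 against 3.16 and 3.77. That split was read from expression, not from the labels, and results are given with each set of controls. Arrays also fell into 2 sets by 5 noncoding RNAs (mean 8.19 to 8.39 in 7 arrays, 6.81 to 7.21 in 9). Controls 1 to 3 and SHP2 miR1 tumours 1 to 4 were in the first, and every SHP2 miR2 tumour was in the other. The labels name no batch. The SD over all clusters was 1.89 in SHP2 miR2 tumours 1 and 3 and 1.95 to 2.07 in the other arrays.

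Replication genes were lowest in SHP2 miR2 tumours. Relative to each gene's mean over the 16 tumours, the median of the 39 was 0.37, 0.37, 0.31 and 0.33 above it (log2) in control tumours 1, 3, 4 and 6. It was -0.08 and -0.25 in control tumours 2 and 5, ran from -0.08 to 0.26 in SHP2 miR1 tumours, and was -0.60, -0.34 and -0.70 in SHP2 miR2 tumours 1, 2 and 3. SHP2 miR2 tumour 3 had the lowest of the 16 signals for 24 members and tumour 1 for 12, against 1 for tumour 2. The highest signal lay in control tumour 1, 3, 4 or 6 for 32 members and in an SHP2 miR1 tumour for 7. Over all genes, the median deviation of every array was between -0.039 and 0.016, which does not show whether arrays differed in spread. After quantile normalization, which gives every array the same distribution, the medians of the 39 were -0.44, -0.33 and -0.53 in SHP2 miR2 tumours 1, 2 and 3. They then ran from -0.19 to 0.34 in controls and from -0.06 to 0.15 in SHP2 miR1 tumours.

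**Figure D1:**
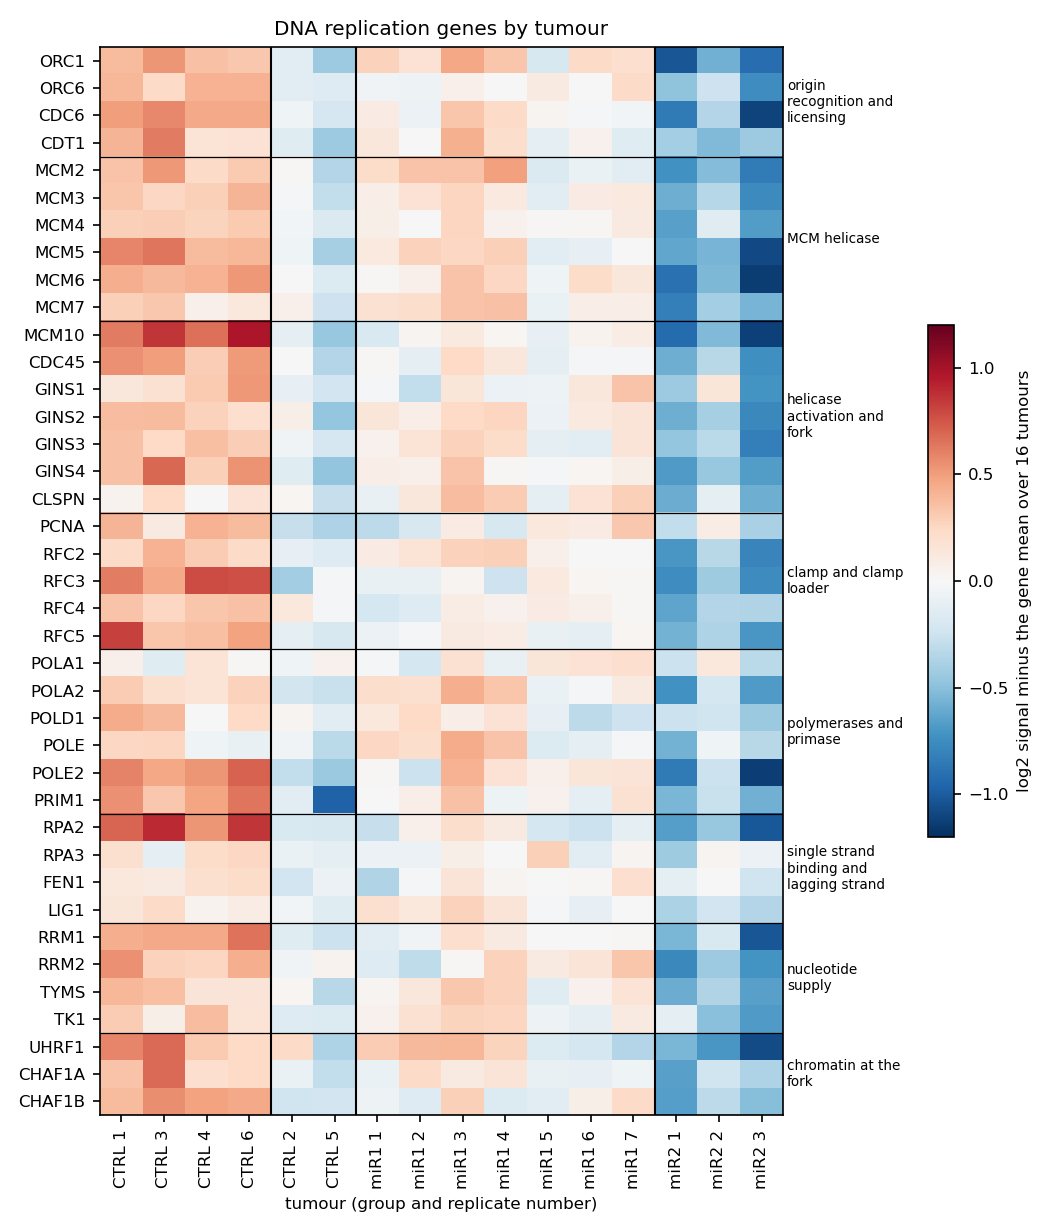
Log2 signal of each of the 39 replication genes (rows, grouped by role) in each of the 16 tumours (columns), minus that gene's mean over the 16 tumours; red is above and blue below that mean. The 4 control tumours on the left are the reddest columns for most genes and the 3 SHP2 miR2 tumours on the right the bluest, while FEN1, POLA1 and RPA3 vary little.

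With SHP2 miR2, 32 of the 39 genes fell against the 6 controls and none rose; over all genes tested, 18.2% were called lower and 11.8% higher. A gene was called at an adjusted p below 0.05 in limma's moderated linear model over all genes. The median change of the members was -0.71, with a range from -1.28 (MCM10) to -0.17 (POLA1), where the median over all genes was 0.02. The 7 genes that did not pass were GINS1, PCNA, POLA1, POLE, PRIM1, RPA3 and FEN1. After quantile normalization, which gives every array the same distribution, 29 members passed, without LIG1, CLSPN and TK1, and 15.2% of all genes were called lower. When arrays were centred on their medians, 22.6% of all genes were called lower and 7.05% higher, and 34 members fell. In 21 of the 39, all 3 SHP2 miR2 tumours lay below all 6 controls, against 11.2% of all genes.

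With SHP2 miR1, 0 of the 39 genes passed in limma, where 3.38% of all genes were called lower and 1.38% higher. At an unadjusted p below 0.05, 5 were lower (MCM10, RFC3, RFC4, RFC5 and RPA2), or 12.8% of the members against 10.2% of all genes. The median change was -0.11, from -0.51 (RPA2) to 0.13 (POLE), and 32 changes were below 0. No member had all 7 SHP2 miR1 tumours below all 6 controls, a pattern found in 0.555% of all genes. The count changed with the controls: 15 members fell against control tumours 1, 3, 4 and 6 alone, where 11.9% of all genes were called lower. Those controls were set apart by expression, and in 34 members both other controls read below them. The count of 15 is therefore a description. Leaving out control tumour 5 gave 5 calls, and leaving out control tumour 2 gave 2. For fits that left out 1 tumour, here and below, the share over all genes was not counted. With arrays weighted by quality 10 fell, where 11.2% of all genes were called lower.

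In the mean of both hairpin changes, which weights them equally, 27 of the 39 fell and none rose; 13.1% of all genes were called lower and 5.52% higher. With the third of lowest mean signal left out, 17.9% of the remaining genes were called lower and 6.2% higher. The median of the members was -0.39, with all 39 below 0. This count was 17 without control tumour 3 and 17 without SHP2 miR2 tumour 3.

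The hairpins differed from each other. In the direct contrast, 32 of the 39 were higher with SHP2 miR1 than with SHP2 miR2, by a median of 0.61 (0.13 to 1.06), and 14.3% of all genes were called higher. With the third of lowest mean signal left out, 23.1% of the remaining genes were called higher and 7.66% lower. GINS1, PCNA, POLA1, POLD1, PRIM1, RPA3 and FEN1 did not pass. In 31 members every SHP2 miR2 tumour lay below every SHP2 miR1 tumour, against 13.2% of all genes. The count fell to 17 without SHP2 miR2 tumour 1 and to 13 without SHP2 miR2 tumour 3. After quantile normalization 22 were called, against 9.64% of all genes, and the median was 0.43. When arrays were centred on their medians 32 were called, and over all genes the split of higher against lower calls went from 14.3% and 8.22% to 21.9% and 4.01%.

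**Figure D2:**
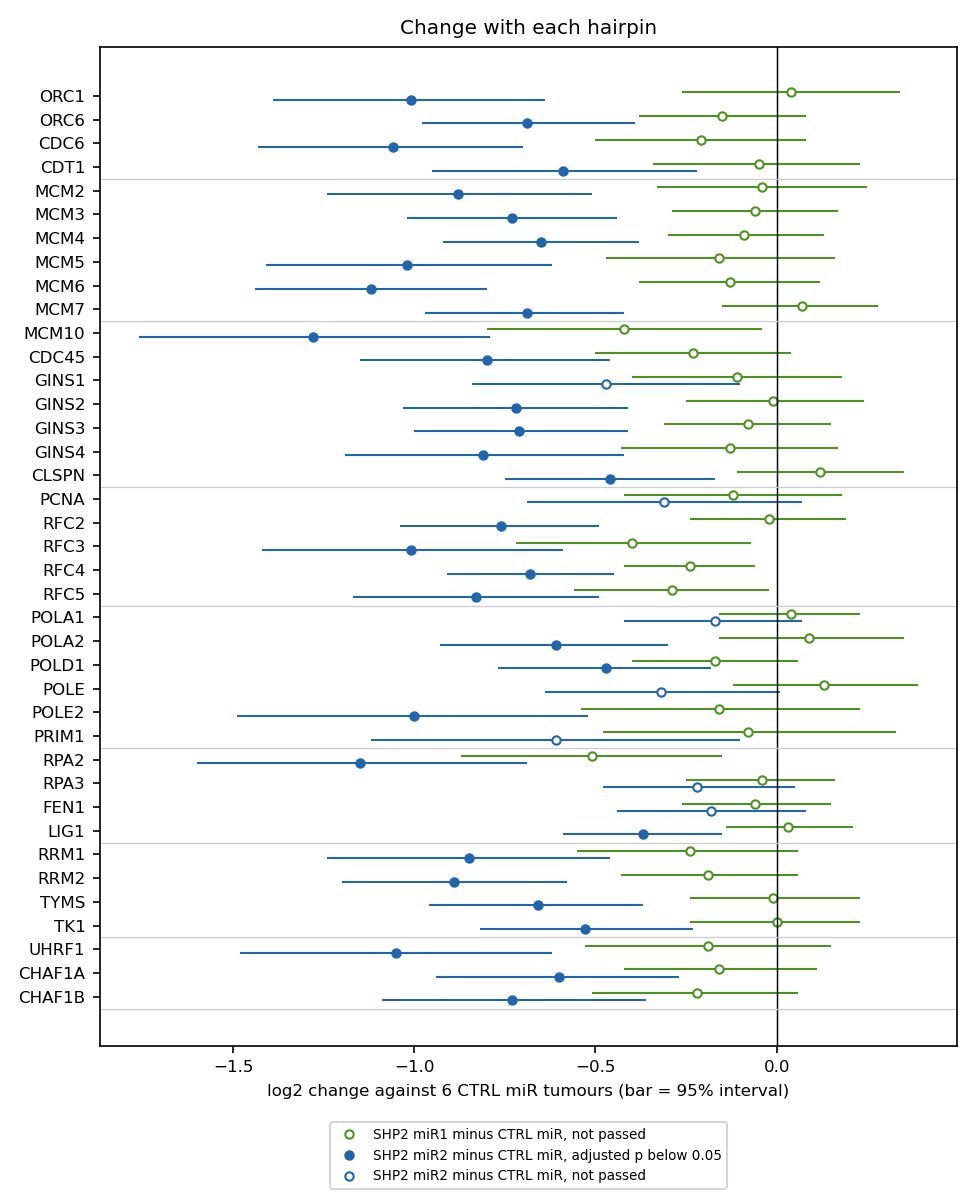
Log2 change of each replication gene against the 6 CTRL miR tumours with SHP2 miR1 (green, 7 tumours) and SHP2 miR2 (blue, 3 tumours); bars are 95% intervals from limma and filled points passed at an adjusted p below 0.05. Every blue point lies left of 0 and 32 are filled; no green point is filled, and 32 of 39 green points lie left of 0.

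Since many of these genes moved together, their promoters were searched for the E2F letters TTTCGCGC, TTTGGCGC, TTTCCCGC and TTTGCCGC on both strands, over the 250 bases before the RefSeq gene start (GRCh38.p14, first entry of each symbol). Of the 34 members with an entry, 13 (38.2%) held at least 1 match, against 761 of 27305 promoters in all (2.79%). Of the lists described below, 1 of 30 mitosis genes (3.33%) and 4 of 39 other replication genes (10.3%) held a match. Matches may overlap, and a match is a description of letters only. The stretches below are those of 6 members whose values are given in full, with the matched letters in capitals, on the strand of the gene. They are MCM6 (chr2:135876492-135876625, minus strand), RFC3 (chr13:33818064-33818131, plus), LIG1 (chr19:48170421-48170488, minus), UHRF1 (chr19:4909457-4909500, plus), MCM7 (chr7:100101398-100101436, minus) and MCM3 (chr6:52284879-52284946, minus).
MCM6: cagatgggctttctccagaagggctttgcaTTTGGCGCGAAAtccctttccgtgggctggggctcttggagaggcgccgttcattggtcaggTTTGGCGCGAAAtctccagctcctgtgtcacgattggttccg
RFC3: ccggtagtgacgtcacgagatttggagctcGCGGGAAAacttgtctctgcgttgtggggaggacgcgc
LIG1: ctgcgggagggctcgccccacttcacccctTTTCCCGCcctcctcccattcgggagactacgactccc
UHRF1: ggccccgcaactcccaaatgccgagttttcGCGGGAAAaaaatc
MCM7: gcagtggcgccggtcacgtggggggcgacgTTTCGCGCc
MCM3: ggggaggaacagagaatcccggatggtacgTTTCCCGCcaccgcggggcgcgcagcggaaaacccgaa

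MCM6 held 4 matches, in 2 overlapping pairs on opposite strands, and the other 5 stretches held 1 each. MCM7 held a second match farther upstream in the searched window, outside the stretch shown. RFC3 and UHRF1 carry the letters on the opposite strand. With SHP2 miR2 the median change was -0.66 in the 13 with a match (10 called lower) and -0.73 in the 21 without (18 called lower). Of all genes tested, 18.2% were called lower. Among the members that fell most, MCM6, UHRF1 and RFC3 held a match, and CDC6, ORC1, MCM10, POLE2 and RRM2 were without one in this window. RPA2 and MCM5 had no entry. The CCAAT box stood in 20 of 34 members (58.8%), in 33.0% of all promoters, in 76.7% of mitosis genes and in 51.3% of other replication genes. The letters TTTGAA, the core of the CHR element of mitotic genes, stood in 1 of 34 members (2.94%) against 13.6% of all promoters and 17 of 30 mitosis genes (56.7%).

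Origin recognition and licensing genes fell with SHP2 miR2 in 4 of 4 cases (ORC1, ORC6, CDC6 and CDT1). Over all genes, 18.2% were called lower with miR2, and this share stands beside the count of every role group below. CDC6, the ATPase that recruits MCM to ORC, read 8.77, 8.85, 8.72 and 8.72 in control tumours 1, 3, 4 and 6 and 8.22 and 8.07 in control tumours 2 and 5. It ran from 8.2 to 8.60 (median 8.30) in SHP2 miR1 tumours and read 7.42, 7.92 and 7.16 in SHP2 miR2 tumours. SHP2 miR2 tumours lay below all others, and SHP2 miR1 tumours lay below controls 1, 3, 4 and 6. The change was -1.06 (SE 0.174, adjusted p 0.000311 in limma) with miR2, to 47.9% of the control signal (95% interval 37.2 to 61.6%), and -0.21 (adjusted p 0.462) with miR1. ORC1, the largest ORC subunit, read 7.0, 7.15, 6.97 and 6.94 in controls 1, 3, 4 and 6, and 6.49 and 6.18 in controls 2 and 5. Its SHP2 miR1 signals ran from 6.42 to 7.08 (median 6.85), and those of SHP2 miR2 were 5.59, 6.04 and 5.70. SHP2 miR1 tumours overlapped both sets of controls, and SHP2 miR2 tumours lay below every other tumour. It had the largest difference between hairpins of the 39, 1.06 (SE 0.176, adjusted p 0.000474 in limma), and its change with miR1 was 0.04. ORC6, another ORC subunit, fell by 0.69 with miR2. CDT1, the partner of CDC6 in MCM loading, fell by 0.59 with adjusted p 0.018 in limma.

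All 6 subunits of the MCM2-7 helicase fell with SHP2 miR2, by 0.65 (MCM4) to 1.12 (MCM6), and none passed with SHP2 miR1, where changes ran from -0.16 (MCM5) to 0.07 (MCM7). MCM6 read 9.01, 8.96, 8.99 and 9.09 in control tumours 1, 3, 4 and 6, and 8.57 and 8.41 in control tumours 2 and 5. In SHP2 miR1 tumours it ran from 8.52 to 8.91 (median 8.71), and in SHP2 miR2 tumours it was 7.68, 8.03 and 7.43. No SHP2 miR2 tumour reached the lowest of the other 13. The fall was to 45.9% of the control signal (36.8 to 57.3%; change -1.12, SE 0.153, adjusted p 5.83e-05 in limma), and in the direct contrast MCM6 was 1.0 (log2) higher in SHP2 miR1 tumours, with adjusted p 0.000167. MCM5 read 8.75, 8.80, 8.54 and 8.56 in the higher controls and 8.11 and 7.76 in controls 2 and 5. It ran from 8.04 to 8.45 (median 8.28) with miR1 and was 7.54, 7.60 and 7.08 with miR2. All SHP2 miR1 tumours lay below the higher controls and above control tumour 5, and the miR2 change was -1.02 (SE 0.189, adjusted p 0.000906 in limma). MCM7 differed in its controls: tumours 1, 3, 4 and 6 read 9.51, 9.55, 9.29 and 9.35, and tumours 2 and 5 read 9.29 and 8.98. It ran from 9.15 to 9.58 (median 9.41) with miR1 and was 8.41, 8.82 and 8.67 with miR2, below every other tumour. Its change was -0.69 (SE 0.131, adjusted p 0.000994 in limma) with miR2. MCM3 was 8.86, 8.77, 8.81 and 8.93 in controls 1, 3, 4 and 6, and 8.51 and 8.23 in controls 2 and 5. It ran from 8.40 to 8.78 (median 8.64) with miR1 and was 7.94, 8.18 and 7.76 with miR2, a change of -0.73 (SE 0.138, adjusted p 0.00107 in limma). MCM2 fell by 0.88 and MCM4 by 0.65.

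Of the 7 genes of helicase activation and the fork, 6 fell with SHP2 miR2 and GINS1 did not pass (-0.47, adjusted p 0.0509 in limma). MCM10, which helps start the assembled helicase, had the largest change of the 39. It read 8.23, 8.46, 8.27 and 8.58 in control tumours 1, 3, 4 and 6, and 7.50 and 7.15 in control tumours 2 and 5. SHP2 miR1 tumours ran from 7.42 to 7.72 (median 7.64), and SHP2 miR2 tumours were at 6.68, 7.08 and 6.49. The gap between the sets of controls was larger here than the whole range of SHP2 miR1 tumours, which all lay below controls 1, 3, 4 and 6. The miR2 change was -1.28 (SE 0.233, adjusted p 0.000776 in limma), to 41.3% of the controls (29.4 to 57.8%), and the miR1 change was -0.42 (adjusted p 0.219). CDC45, the helicase cofactor, read 7.89, 7.85, 7.64 and 7.86 in the higher controls, and 7.35 and 6.99 in controls 2 and 5. It ran from 7.24 to 7.58 (median 7.33) with miR1 and was 6.76, 7.01 and 6.61 with miR2. SHP2 miR2 tumour 2 thus overlapped control tumour 5, and the change was -0.80 (SE 0.164, adjusted p 0.00175 in limma). The GINS subunits bind CDC45 and MCM: GINS2, GINS3 and GINS4 fell by 0.72, 0.71 and 0.81. CLSPN (claspin), which links the fork to checkpoint signalling, fell by 0.46.

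All 4 clamp loader subunits on the list fell with SHP2 miR2, by 0.68 (RFC4) to 1.01 (RFC3), and the clamp PCNA did not pass. RFC3 read 8.50, 8.34, 8.67 and 8.66 in control tumours 1, 3, 4 and 6, and 7.47 and 7.86 in control tumours 2 and 5. It ran from 7.64 to 8.0 (median 7.90) with miR1 and was 7.14, 7.46 and 7.13 with miR2. SHP2 miR2 tumour 2 lay just below control tumour 2. RFC3 changed by -1.01 (SE 0.200, adjusted p 0.00143 in limma) with miR2 and by -0.40 (adjusted p 0.169) with miR1. RFC5 read 8.46, 7.97, 8.0 and 8.12 in the higher controls and 7.53 and 7.45 in controls 2 and 5; it ran from 7.53 to 7.75 (median 7.61) with miR1 and was 7.07, 7.27 and 6.94 with miR2. Its miR2 change was -0.83 (SE 0.164, adjusted p 0.00139 in limma). RFC2 was 8.67, 8.86, 8.75 and 8.67 in the higher controls and 8.35 and 8.29 in controls 2 and 5. With miR1 it ran from 8.45 to 8.73 (median 8.54), and with miR2 it was 7.75, 8.11 and 7.65, a change of -0.76 (SE 0.132, adjusted p 0.0005 in limma). PCNA, described after its values were seen, read 8.53, 8.23, 8.54 and 8.50 in the higher controls and 7.85 and 7.75 in controls 2 and 5. It ran from 7.81 to 8.45 (median 8.22) with miR1 and was 7.83, 8.21 and 7.73 with miR2. The groups overlapped throughout, and PCNA changed by -0.31 with miR2 (95% interval -0.69 to 0.07, adjusted p 0.193 in limma) and by -0.12 with miR1. Against control tumours 2 and 5 alone its miR2 change was 0.12.

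Of the 6 polymerase and primase genes, POLA2, POLD1 and POLE2 fell with SHP2 miR2, and POLA1, POLE and PRIM1 did not pass. POLE2, the accessory subunit of polymerase epsilon, read 6.40, 6.27, 6.34 and 6.52 in control tumours 1, 3, 4 and 6, and 5.51 and 5.36 in control tumours 2 and 5. It ran from 5.55 to 6.23 (median 5.95) with miR1 and was 4.96, 5.55 and 4.68 with miR2. SHP2 miR2 tumour 2 lay above both low controls, and the change was -1.0 (SE 0.233, adjusted p 0.00416 in limma). POLE, the catalytic subunit of the same enzyme, changed by -0.32 (-0.64 to 0.01). PRIM1, the catalytic primase subunit, read 7.98, 7.76, 7.91 and 8.08 in the higher controls, 7.30 in control tumour 2 and 6.46 in control tumour 5, which was its lowest tumour. It ran from 7.32 to 7.79 (median 7.49) with miR1 and was 6.89, 7.17 and 6.86 with miR2. Its miR2 change was -0.61 (SE 0.244, adjusted p 0.0646 in limma) and was 0.10 against controls 2 and 5 alone. POLA1, the catalytic subunit of polymerase alpha, also described after its values were seen, moved least. It ran from 8.59 to 8.90 (median 8.77) in controls and from 8.53 to 8.94 (median 8.88) with miR1, and was 8.48, 8.86 and 8.41 with miR2, a change of -0.17 (-0.42 to 0.07). Its partner POLA2 fell by 0.61 and was 0.71 higher with miR1 than with miR2. POLD1, the catalytic subunit of polymerase delta, fell by 0.47.

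Among the single-strand binding and lagging-strand genes, RPA2 and LIG1 fell with SHP2 miR2 and RPA3 and FEN1 did not pass. RPA2, a subunit of the protein that coats unwound DNA, read 6.84, 7.04, 6.67 and 7.0 in control tumours 1, 3, 4 and 6, and 5.96 and 5.95 in control tumours 2 and 5. It ran from 5.86 to 6.35 (median 6.02) with miR1 and was 5.48, 5.69 and 5.12 with miR2. All SHP2 miR1 tumours lay below the higher controls, and all SHP2 miR2 tumours lay below every other tumour. RPA2 changed by -1.15 (SE 0.219, adjusted p 0.00109 in limma) with miR2 and by -0.51 (SE 0.172, adjusted p 0.101) with miR1. LIG1, the ligase that joins Okazaki fragments, read 7.42, 7.51, 7.32 and 7.37 in the higher controls and 7.25 and 7.13 in controls 2 and 5. It ran from 7.18 to 7.56 (median 7.41) with miR1 and was 6.90, 7.05 and 6.93 with miR2. Its change was the smallest of the 32 calls, -0.37 (SE 0.106, adjusted p 0.0135 in limma), with no overlap between SHP2 miR2 tumours and the rest. FEN1, the flap nuclease of the lagging strand, ran from 7.64 to 8.09 (median 7.99) in controls and from 7.51 to 8.07 (median 7.88) with miR1, and was 7.75, 7.86 and 7.63 with miR2. These overlapped, and the change was -0.18 (-0.44 to 0.08). RPA3, the smallest RPA subunit, changed by -0.22 (-0.48 to 0.05). Both genes were described after their values were seen.

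All 4 genes of nucleotide supply fell with SHP2 miR2. RRM2, the S phase subunit of ribonucleotide reductase, read 6.80, 6.53, 6.51 and 6.69 in control tumours 1, 3, 4 and 6, and 6.21 and 6.30 in control tumours 2 and 5. It ran from 5.95 to 6.59 (median 6.36) with miR1 and was 5.48, 5.82 and 5.54 with miR2. SHP2 miR1 tumours overlapped both sets of controls, and SHP2 miR2 tumours lay below the rest. The change was -0.89 (SE 0.149, adjusted p 0.000369 in limma) with miR2, to 54.0% of the controls (43.5 to 67.0%). RRM1, its partner subunit, was 9.38, 9.40, 9.40 and 9.60 in the higher controls and 8.80 and 8.69 in controls 2 and 5. It ran from 8.82 to 9.15 (median 8.94) with miR1, between the sets of controls, and was 8.40, 8.76 and 7.92 with miR2. SHP2 miR2 tumour 2 lay above control tumour 5, and the change was -0.85 (SE 0.186, adjusted p 0.00278 in limma). TYMS and TK1, which make thymidylate, fell by 0.66 and 0.53.

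All 3 genes of chromatin at the fork fell with SHP2 miR2. UHRF1, which reads hemimethylated DNA and recruits the maintenance methyltransferase, was 8.08, 8.17, 7.81 and 7.73 in control tumours 1, 3, 4 and 6, and 7.72 and 7.12 in control tumours 2 and 5. It was 7.80, 7.88, 7.89 and 7.76 in SHP2 miR1 tumours 1 to 4, and 7.33, 7.28 and 7.14 in tumours 5 to 7. With miR2 it was 6.94, 6.79 and 6.42, below all others, a change of -1.05 (SE 0.206, adjusted p 0.00131 in limma). CHAF1B, a subunit of the histone chaperone CAF-1, read 7.30, 7.48, 7.40 and 7.38 in the higher controls and 6.68 and 6.69 in controls 2 and 5. It ran from 6.76 to 7.21 (median 6.86) with miR1 and was 6.26, 6.61 and 6.41 with miR2. Its SHP2 miR1 tumours lay between the sets of controls, and the miR2 change was -0.73 (SE 0.174, adjusted p 0.00514 in limma). CHAF1A, the large CAF-1 subunit, fell by 0.60.

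**Figure D3:**
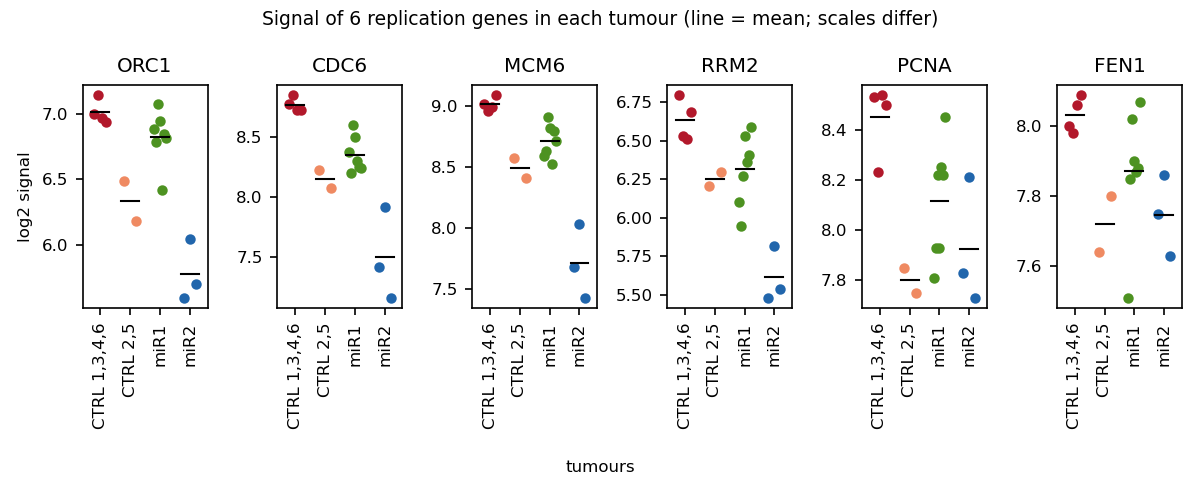
Log2 signal of 6 replication genes in each tumour, by group, with CTRL miR tumours 2 and 5 apart; each point is a tumour, lines are means, and each panel has its own scale. ORC1, CDC6, MCM6 and RRM2 have all 3 SHP2 miR2 tumours below every other tumour, and PCNA and FEN1 do not.

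The counts depended on the controls. As their split was read from expression, the counts against either set are descriptions. In 34 of 39 members control tumours 2 and 5 both lay below tumours 1, 3, 4 and 6, a pattern found in 19.0% of all genes. In 14 members all SHP2 miR1 tumours lay below controls 1, 3, 4 and 6 (10.6% of all genes), and in 11 they all lay above controls 2 and 5 (4.24%). Against controls 1, 3, 4 and 6 alone, 36 members fell with miR2, where 23.9% of all genes were called lower, with a median of -0.88. Against controls 2 and 5 alone, 2 members fell with miR2, near the 2.98% of all genes called lower. They were MCM6 (-0.78, adjusted p 0.0111 in limma) and RRM2 (-0.64, adjusted p 0.0485 in limma). At an unadjusted p below 0.05, 22 were lower (56.4% of the members and 12.5% of all genes). The median was -0.38, 36 members were below 0, and in 21 all SHP2 miR2 tumours lay below both controls (18.0% of all genes). With miR1 the members changed side: 38 of 39 were above 0 against controls 2 and 5, with a median of 0.22. None of them passed in limma, where 0.0326% of all genes were called higher. At an unadjusted p below 0.05, 7 were higher (17.9% of the members and 2.96% of all genes). In the mean of both hairpins against controls 2 and 5 the count was 0 in limma, where 0.479% of all genes were called lower. At an unadjusted p below 0.05, 1 member was lower and 1 higher (2.56% each), against 4.28% and 3.06% of all genes. The median SE of the 39 changes with miR2 was 0.164 in this fit and 0.155 with all 6 controls.

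**Figure D4:**
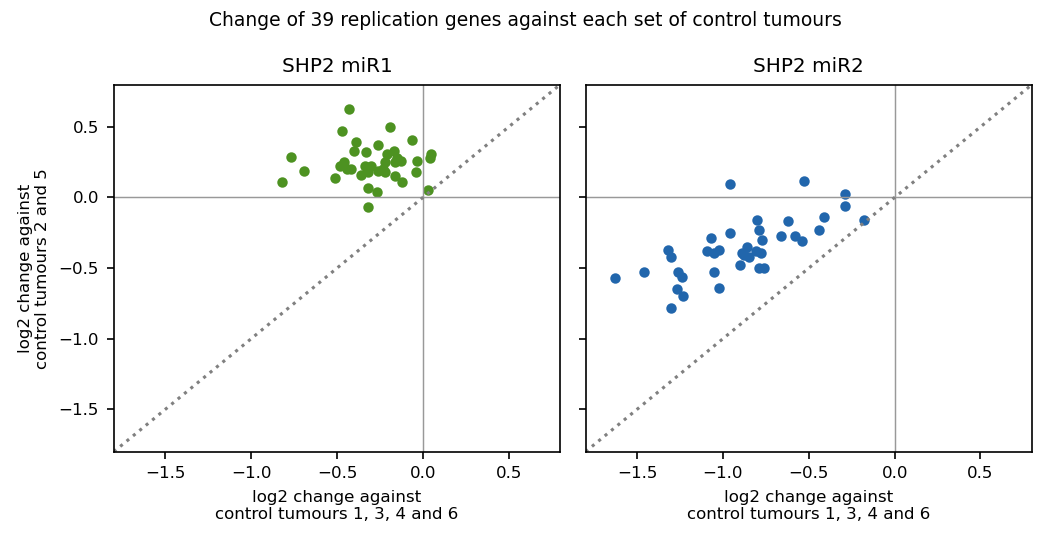
Log2 change of each of the 39 replication genes against control tumours 1, 3, 4 and 6 (horizontal) and against control tumours 2 and 5 (vertical), for SHP2 miR1 (left panel) and SHP2 miR2 (right panel); the dotted line marks equal changes. With miR1, 38 points lie above 0 on the vertical axis and 36 lie left of 0 on the horizontal; with miR2, 36 points lie below 0 on the vertical axis and all 39 lie left of 0.

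The difference between hairpins was also read within the array set that held all SHP2 miR2 tumours. With 3 tumours of each hairpin there, SHP2 miR2 lay below SHP2 miR1 in 34 of 39 members, against 18.9% of all genes. Changes had a median of 0.54, and 6 members passed, where 3.86% of all genes were called higher. In the same set 25 members fell with miR2 against 3 controls (9.98% of all genes), and 0 passed with miR1 in limma (0.00544% of all genes were called lower), with 2 lower at an unadjusted p below 0.05 (5.13% of the members and 5.23% of all genes). In the mean of both hairpins, 1 member fell there (1.03% of all genes). With the set as a term in the fit the direct contrast called 23, against 10.4% of all genes. With miR2 in that fit, CDT1 and POLD1 did not pass (adjusted p 0.0602 and 0.0506 in limma). GINS1 did pass there (-0.56, adjusted p 0.0381 in limma), and 16.4% of all genes were called lower with miR2. The sets were also compared within SHP2 miR1: in 9 members, against 15.7% of all genes, tumours 5 to 7 all lay below tumours 1 to 4. These were MCM2, MCM5, MCM7, RFC2, POLA2, POLD1, POLE, LIG1 and UHRF1. The reverse order was not counted. Some members had the higher mean in tumours 5 to 7, such as PCNA (8.31 against 7.97) and RRM2 (6.46 against 6.21).

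Replication genes outside the list also fell. Of 46 further genes of origins, forks and nucleotides 45 were measured. Of these, 30 fell with SHP2 miR2, 1 with SHP2 miR1 (TIPIN) and 22 in the mean of both, with none higher. Over all genes, 18.2%, 3.38% and 13.1% were called lower in these contrasts, and the miR1 count is near its share. Against controls 2 and 5 alone, 2 fell with miR2, GMNN and POLD2, near the 2.98% of all genes called lower. GMNN (geminin, the inhibitor of CDT1) had the smallest adjusted p among them. It read 6.95, 7.14, 6.92 and 7.23 in control tumours 1, 3, 4 and 6, and 6.43 and 6.52 in control tumours 2 and 5. It ran from 6.15 to 6.60 (median 6.43) with miR1 and was 5.68, 5.98 and 5.34 with miR2, a change of -1.2 (SE 0.17, adjusted p 8.25e-05 in limma). GMNN also fell with miR2 against controls 2 and 5 alone (-0.81, adjusted p 0.0116 in limma). With miR2 the falls were 0.74 for DCTPP1, a nucleotide pyrophosphatase, 0.71 for RNASEH2A, the catalytic subunit of RNase H2, and 0.82 for MCMBP, which binds MCM proteins (-0.29 against controls 2 and 5 alone). MCM8, an MCM relative that acts in recombination, fell by 0.84 (-0.48 against those 2 controls). TIPIN, a fork protection factor, changed by -0.49 with miR1 (adjusted p 0.0442 in limma) and by -0.57 with miR2; against controls 2 and 5 alone these were -0.091 and -0.18 and did not pass, and after quantile normalization the miR1 change did not pass (adjusted p 0.0719 in limma).

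Of 24 regulators of the G1 to S transition, 16 fell and 1 rose with SHP2 miR2, and 1 fell with SHP2 miR1. Over all genes, 18.2% were called lower and 11.8% higher with miR2, and 3.38% lower with miR1. The miR1 count is near that last share. CCNE1 (cyclin E1) read 6.83, 7.12, 6.51 and 6.81 in control tumours 1, 3, 4 and 6, and 6.55 and 6.26 in control tumours 2 and 5. It ran from 6.14 to 6.80 (median 6.53) with miR1 and was 5.71, 5.62 and 5.34 with miR2, below all others. The change was -1.12 (SE 0.161, adjusted p 9.37e-05 in limma), and CCNE1 fell against controls 2 and 5 alone too (-0.85, adjusted p 0.00813 in limma). CCNE2 did not pass (-0.25). Of the E2F factors, E2F1 fell by 0.34, E2F3 by 0.65, E2F4 by 0.49, E2F6 by 0.61 and E2F8 by 0.58 with miR2, and E2F2, E2F5 and E2F7 did not pass. After quantile normalization E2F1 (-0.22) and E2F4 (-0.32) did not pass, and against controls 2 and 5 alone E2F1 and E2F8 were at -0.19 and -0.22. MYC, a transcription factor of growth, read 4.73, 5.28 and 5.27 with miR2, against 6.96 to 7.52 with miR1 and 6.99 to 7.75 in controls (change with miR2 -2.37, SE 0.169, adjusted p 1.88e-08 in limma). The pocket proteins went separate ways with miR2: RBL1 fell by 1.2, RBL2 rose by 0.28 (adjusted p 0.0423 in limma) and RB1 did not pass (-0.19). RBL1 also fell with miR1 (-0.75, adjusted p 0.0388 in limma), but against controls 2 and 5 alone its changes were 0.052 with miR1 and -0.40 with miR2, and neither passed. Of the inhibitors of CDK2, CDKN1B fell by 0.66 with miR2, and CDKN1A did not pass (-0.04). CDKN1B differed by array set (mean of SHP2 miR1 tumours 8.19 in the first and 7.56 in the other), its change was -0.41 within the set of the SHP2 miR2 tumours, and it did not pass after quantile normalization (adjusted p 0.056 in limma). Of these genes MYC, CCNE1 and CCND1 fell with miR2 against controls 2 and 5 alone, where 2.98% of all genes were called lower. CCND1 read 8.91 and 8.87 in those 2 controls, above the 8.37 to 8.68 of controls 1, 3, 4 and 6. With miR2 it was 8.22, 8.06 and 8.27.

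Mitosis genes ran beside the replication genes. Of 35 listed 34 were measured, and all 34 fell with SHP2 miR2 (median -0.88), none passed with SHP2 miR1 in limma (3 were lower at an unadjusted p below 0.05, or 8.82% against 10.2% of all genes), and 34 were higher with miR1 than with miR2. Over all genes, 18.2% were called lower with miR2 and 14.3% higher in the direct contrast. Against control tumours 2 and 5 alone, 13 mitosis genes and 2 of the 39 replication genes fell with miR2, where 2.98% of all genes were called lower. The replication count is near that share. By tumour, the median deviation of mitosis genes was -0.68, -0.31 and -0.93 in SHP2 miR2 tumours, against -0.60, -0.34 and -0.70 for replication genes. SHP2 miR1 tumours 6 and 7 had 0.19 and 0.26 for mitosis genes and 0.01 and 0.09 for replication genes.

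**Figure D5:**
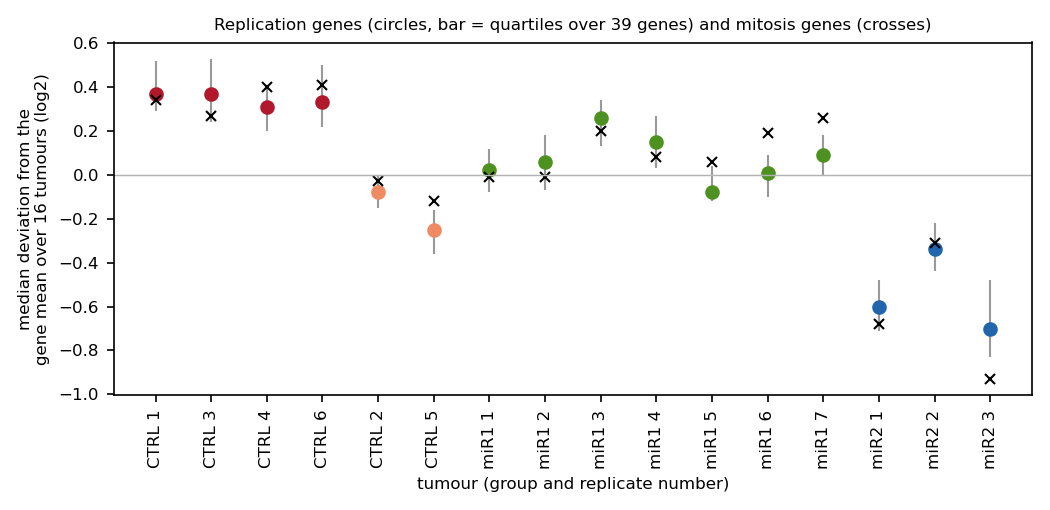
Median deviation of the 39 replication genes (circles, bars from the lower to the upper quartile over genes) and of 34 mitosis genes (crosses) in each tumour from the gene's mean over the 16 tumours, in log2 units. SHP2 miR2 tumours sit at -0.60, -0.34 and -0.70 for replication genes, below the 13 other tumours, and control tumours 2 and 5 sit below the other 4 controls.

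Some markers of host cell types were higher with SHP2 miR2, where 11.8% of all genes were called higher. The hosts were mice and the array is designed for human genes. How far it reads host RNA was not tested. Many of these markers read low, for example PTPRC at 3.11 to 4.06 and LUM at 2.64 to 3.31. Others read higher, such as COL1A1 at 8.47 to 9.54. The median over all clusters was 5.41 in SHP2 miR2 tumours 1 and 3 and 5.21 to 5.36 in the other arrays. The mean over 10 tumour epithelium markers lay between 9.15 and 9.81 in controls, 9.66 and 9.89 with miR1 and 9.66 and 9.94 with miR2, and 3 were higher with miR2. The mean of 10 fibroblast markers was 5.01 to 5.40, 5.18 to 5.41 and 5.43 to 5.55 in these groups, and 7 were higher and 1 lower with miR2. For 10 macrophage markers it was 4.12 to 4.47, 4.31 to 4.53 and 4.51 to 4.85, with 6 higher. For 8 endothelial markers it was 4.31 to 4.66, 4.35 to 4.63 and 4.50 to 4.77, with 2 higher. Among the other lists, 1 of 6 lymphocyte, 1 of 7 skeletal muscle, 2 of 5 adipocyte and 1 of 2 blood markers measured were higher with miR2; the lymphocyte and muscle counts are near the share over all genes. The sets of controls differed too: the epithelium mean was 9.71 to 9.81 in control tumours 2 and 5 and 9.15 to 9.56 in tumours 1, 3, 4 and 6, and the fibroblast mean was 5.29 to 5.40 and 5.01 to 5.11. The part of these cells in the replication gene values was not tested.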

How the data were processed

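The authors deposited 1 log2 signal per transcript cluster and array (Affymetrix HuGene-1_0-st-v1); the log2 scale is inferred from the values. The submitters' processing notes name R 2.10 and oligo 1.8; how background was corrected and arrays were normalized is not given in the sources used here. Among the 28869 clusters, 19310 name 1 symbol, 1752 several and 7807 none; 685 genes have more than 1 cluster (UHRF1 and CLSPN among the members). Genes of low signal were kept. With limma 3.58.1 (R 4.3.3), 1 linear model over the 3 groups was fitted to all 18377 genes, with Benjamini-Hochberg adjustment within a contrast; the fit was tested on simulated data. The number of arrays limits the precision.

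The members and gene lists were chosen with earlier results of these data known. Values in full are given for the 2 members of each role with the largest mean change of both hairpins and for at most 6 called between hairpins or against controls 2 and 5, by smallest adjusted p. Of the other replication genes, the 6 with the smallest adjusted p are named. Alternatives were other normalizations, filters, weights, blocks, cluster rules and sets of tumours. Promoter sequences come from RefSeq (GRCh38.p14), matched by symbol. Intervals are at the 95% level.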

Additional observations from a re-analysis of the deposited data

Results flagged for a closer look

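The 39 genes and PTPN11 were each examined in the CTRL miR and SHP2 miR1 tumours, 80 groups in all, for a tumour far from its neighbours; chance alone picks about 1 in 20 groups. MCM4 in SHP2 miR1 tumour 3 was 8.73, with the next tumour at 8.58. GINS4 in the same tumour was 6.76, with the next at 6.5. GINS2 in control tumour 5 was 6.51, with the next control at 7.04. FEN1 in SHP2 miR1 tumour 1 was 7.51, with the next at 7.85. The hairpins differed from each other in the direct limma contrast for 32 of the 39 genes.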

How the results depend on the processing

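Counts are of the 39 replication genes called lower (or, between hairpins, called higher with miR1). Leaving out each tumour in turn gave 17 to 32 for the mean of both hairpins, 0 to 5 for miR1, 26 to 35 for miR2 and 13 to 33 between hairpins. Against control tumours 2 and 5 alone the counts for both, miR1 and miR2 were 0, 0 and 2; with quantile normalization as well, a setting chosen after seeing the data, they were also 0, 0 and 2. With miR1, 15 were called against control tumours 1, 3, 4 and 6, and 10 with array weights. In the array set that held all SHP2 miR2 tumours, 1 was called for both and 6 between hairpins. The other alternatives stayed within 1.5 times of each count. The labels do not say that a replicate number pairs tumours. Same-numbered tumours had correlations of deviations from -0.42 to 0.369, but other pairs were not computed, so pairing was not tested. With the number as a replicate block 28, 0, 34 and 32 were called. In that fit 13.4%, 2.74% and 20.7% of all genes were called lower, and 19.3% higher between hairpins. PTPN11 changed by -1.51 to -1.42 with miR1 and by -1.97 to -1.88 with miR2 when each tumour was left out. The cause of these shifts was not tested; sets of 2 or 3 tumours a group also leave fewer residual degrees of freedom.

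Directions turned against control tumours 2 and 5 alone. For the mean of both hairpins the changes became 0.10 for CDT1, 0.0091 for GINS1, 0.054 for GINS4, 0.22 for PCNA, 0.056 for POLA2, 0.087 for POLE, 0.051 for POLE2, 0.36 for PRIM1, 0.024 for RPA3 and 0.089 for FEN1. With miR2 they became 0.12 for PCNA, 0.097 for PRIM1 and 0.026 for FEN1, and with miR1 0.11 for RPA2, 0.29 for MCM10 and 0.19 for RFC3, the other members with miR1 being given by their count. With quantile normalization as well, the mean of both became 0.12 for CDT1, 0.045 for GINS1, 0.056 for GINS4, 0.25 for PCNA, 0.088 for POLA2, 0.13 for POLE, 0.011 for POLE2, 0.41 for PRIM1, 0.0054 for RPA3, 0.12 for FEN1, 0.004 for LIG1, 0.031 for TK1, 0.016 for CHAF1A and 0.011 for CLSPN. In that setting miR2 gave 0.24 for PCNA, 0.23 for PRIM1 and 0.15 for FEN1, and miR1 gave 0.12 for RPA2, 0.23 for MCM10 and 0.13 for RFC3. FEN1 between hairpins was -0.057 with quantile normalization, both with all 6 controls and with controls 2 and 5 alone.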
